A study of Drosophila melanogaster with 6 samples.

Results

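The genes described here encode the enzymes of xenobiotic and hormone metabolism in Drosophila melanogaster: cytochrome P450s, glutathione S-transferases (GSTs) and UDP-glycosyltransferases (UGTs). They were chosen by symbol, as genes whose name starts with Cyp and a digit, with Gst, or with Ugt and a digit, on a probe set that names a single gene. A gene was represented by its probe set with the highest mean over the 6 arrays. The rule found 152 of the 11982 named genes: 81 P450 genes, 34 GST genes, 35 UGT genes, and 2 genes, Cyp1 and Cyp40, that encode cyclophilins and are not P450s.

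RNA came from eye-antennal discs, which are epithelial sacs of the larva that give rise to eye, antenna and head cuticle, of wandering third-instar larvae grown at 25 °C in the w1118 strain. The control genotype was GS(2)88A8 UAS-Dl/+, in which UAS-Dl is a Gal4-dependent transgene of the Notch ligand Delta and GS(2)88A8 is a Gal4-responsive insertion. The tumour genotype was ey-Gal4 GS(2)88A8 UAS-Dl/+, with Gal4 under control of the eyeless gene, which acts in the developing eye. Each genotype had 3 biological replicates, each on its own array and each a pool whose size in the design text reads as 300 disc pairs. Both genotypes carry the same insertions. Larvae with ey-Gal4 but without them were not analysed here, so what the driver does alone and what the activated genes do cannot be told apart.

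P450s are haem enzymes that oxidise small lipophilic molecules, and some of them make or inactivate the moulting hormone ecdysone or build cuticle lipids. GSTs join such products to the tripeptide glutathione, and UGTs join them to a sugar, which makes them soluble for export. In flies the larval fat body, midgut and Malpighian tubules are the best known sites of these enzymes, and many of their genes lie side by side in chromosomal arrays.

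Values are log2 intensities of single-colour Affymetrix arrays, on a scale with a minimum of 2.165 and a maximum of 15.79. A value under 4 is called at floor and carries little information about level. A probe set was tested if it reached 4 on at least 3 arrays. Levels of different genes come from different probes and are not ranked against each other. Adjusted p-values are two-sided, from limma over all 7962 tested probe sets, with a threshold of 0.05. The unpaired fit compared the genotypes alone. The paired fit added the replicate number as a block, because same-number arrays of the 2 genotypes deviated together, with correlations of 0.794, 0.467 and 0.723. Arrays of different number among replicates 2 and 3 also deviated together, with 0.668 for tumour 2 with control 3 and 0.473 for tumour 3 with control 2. For tumour 2 this was closer than the 0.467 with its own number. Replicate 1 correlated negatively with replicates 2 and 3. The block therefore rests on the data and not on the labels, and mainly on replicate 1 standing apart from the other 2 numbers.

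The discs expressed genes of their tissue. The retinal genes so, eya, dac and ey and the antennal gene Dll lay between 8.32 and 13.11 on all arrays. In the paired fit so, eya, dac and ey were called as higher in tumour, by 0.49 to 1.24 log2, beside 4.06% of all tested genes. Dll was called as lower, by -0.61, beside 5.38%. The unpaired fit called none of these genes, and the genotypes overlapped for Dll. Both replicate 1 arrays were dimmer than the other 4, with medians of tested probe sets of 8.78 and 8.85 against 9.12 to 9.17. The haemocyte and muscle genes measured were above 4 on all arrays of both genotypes. Some genes of fat body and salivary gland passed 4 on control arrays alone. The fat body genes Lsp2, Fbp1 and Fbp2 stood at 6.51, 5.52 and 5.55 on control replicate 3 and did not exceed 3.24 on any other array. Another gene of that list, ppl, was at 9.32 to 9.74 on all arrays, with a difference of 0.13 that was not called (adjusted p = 0.31 paired). The salivary glue gene Sgs7 stood at 3.66, 5.17 and 6.61 in control replicates 1 to 3 and at 2.54 to 2.74 in tumour.

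Most P450 and UGT genes were at floor, whereas most GST genes were not. Of 81 P450 genes, 66 were under 4 on all arrays, or 81.5%. Of 35 UGT genes, 28 were at floor, or 80.0%, and of 34 GST genes 13 were, or 38.2%. Among all 11982 named genes the share was 45.1%. The exact scale minimum was recorded on all 6 arrays for 40 P450, 22 UGT and 7 GST genes.

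**Figure D1:**
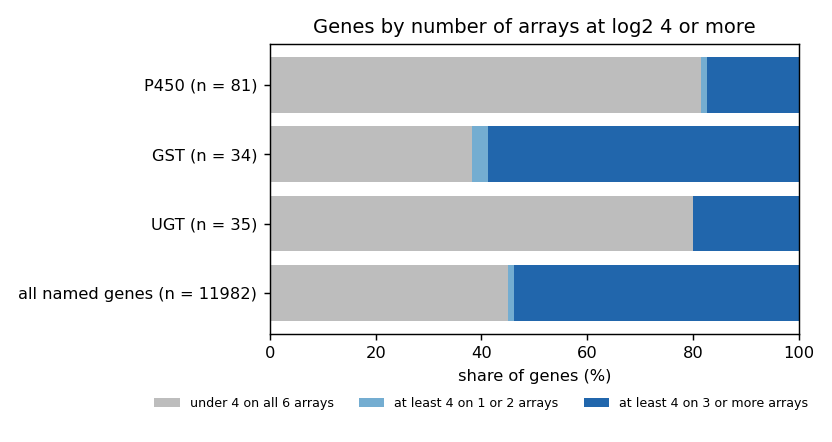
Share of genes (percent) in each enzyme family, and among all named genes, by the number of arrays on which the log2 value was at least 4. Grey marks genes under 4 on all 6 arrays, 81.5% of P450, 38.2% of GST and 80.0% of UGT genes against 45.1% of all named genes.

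The border at 4 was sparsely filled. Just outside it, Ugt35A1 reached 3.77 on its highest array, and Cyp28a5, the next of the genes at floor, reached 3.25. Just inside it, GstD2 ranged from 3.64 to 4.47 and passed 4 on control arrays alone. Cyp4g15, a relative of Cyp4g1 known from the nervous system, passed 4 on a single array, tumour replicate 2, at 4.10. Neither of these was tested, since each passed 4 on fewer than 3 arrays.

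Several enzymes with well known tasks elsewhere were at floor in discs of both genotypes. Cyp4g1, the oenocyte enzyme that makes cuticular hydrocarbons, did not exceed 2.32 on any array. Cyp6g1, Cyp6a2 and Cyp12a4, known for insecticide resistance, did not exceed 2.17. The same held for Cyp303a1, needed for sensory bristles, and for GstE14, an enzyme of ecdysone production in the prothoracic gland. Cyp301a1, which acts in adult cuticle formation, did not exceed 2.21, Cyp49a1, a mitochondrial P450, 2.37, and Ugt305A1 2.17.

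Within the GST family the classes had different shares of tested genes, and these differences were not tested. All 3 omega, 4 theta and 2 zeta genes with a Gst symbol and the single sigma gene, GstS1, were tested. The omega gene se, which lacks that symbol, is not counted here and was at floor. Of 13 epsilon genes 7 were tested, and of 11 delta genes 3. Among P450 genes with a Cyp symbol, 8 of 37 of the CYP3 clan and 4 of 32 of the CYP4 clan were tested. So were 1 of 4 of the CYP2 clan and 1 of 8 of the mitochondrial clan. At floor were 29, 27, 3 and 7 genes of these clans in that order. P450 genes under other symbols, such as spok and sad, are not in these counts and are given below.

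In all, 41 genes of the 3 families were tested, 14 P450, 20 GST and 7 UGT, and 38 of them were at least 4 on all 6 arrays. The exceptions were Cyp4d2 and GstE3, with 4 arrays each, and Ugt317A1, with 5. The unpaired fit called 0 of the 41, beside 0.512% of all 6447 tested genes (0.372% lower in tumour), and 6 of the 41 had an unadjusted limma p under 0.05, beside 8.73% of all tested genes. The paired fit called 10 of 41, or 24.4%, beside 9.45% of all tested genes.

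Of these 10 genes, 8 were lower in tumour, or 19.5% of those tested beside 5.38% of all tested genes, and 2 were higher, beside 4.06%. The lower genes were Cyp4e2, Cyp6a17, GstD1, GstD9, GstE5, Ugt36D1, Ugt301D1 and Ugt317A1. The higher genes were Cyp6v1 and GstO1. By family the paired fit called 3 of 14 P450, 4 of 20 GST and 3 of 7 UGT genes, and the difference between families was not tested. With replicates 2 and 3 alone, fitted without a block, the same 8 lower genes were called and the 2 higher ones were not, beside 7.17% of all tested genes and 4.19% called as lower. With the block and without replicate 3 of both genotypes, limma called 0 of the 41 and 0 genes in all, with 13 of the 41 at an unadjusted p under 0.05.

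**Figure D2:**
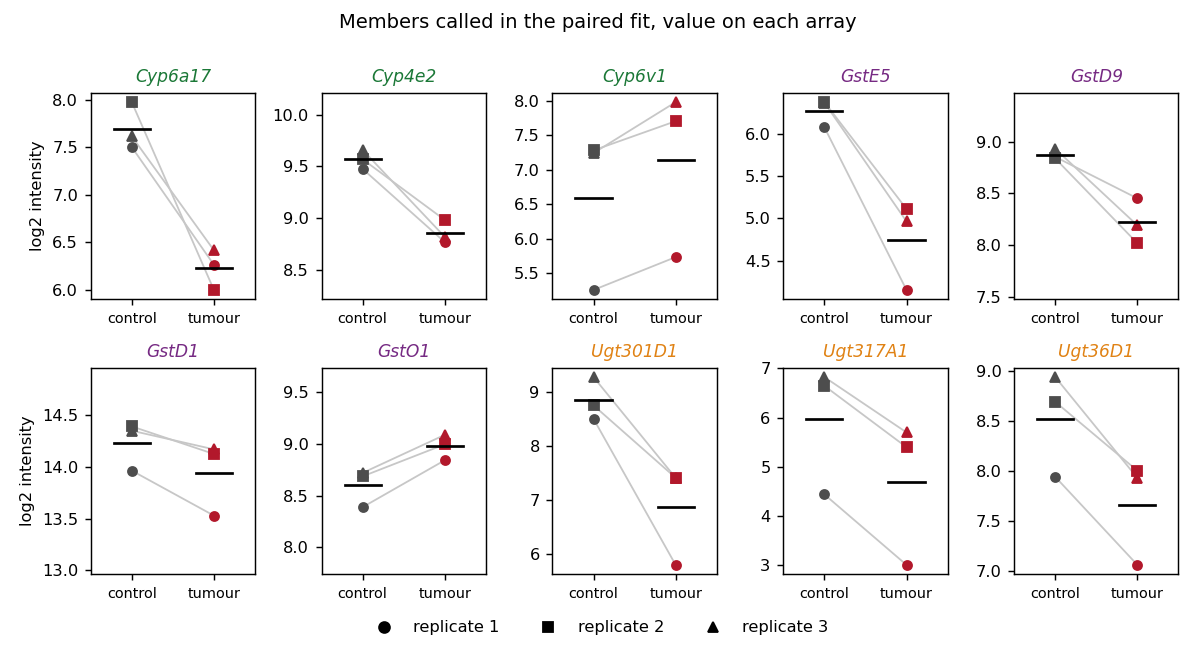
Log2 intensity on each array of the 10 genes called in the paired fit, with control in grey and tumour in red. Grey lines join arrays with the same replicate number and bars mark the means of 3 arrays. Cyp4e2, Cyp6a17, GstD9, GstE5 and Ugt301D1 are lower in all tumour than in all control arrays, GstO1 is higher, and the genotypes overlap for Cyp6v1, GstD1, Ugt36D1 and Ugt317A1.

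Over the tested members of each family the median difference, tumour minus control, was -0.10 log2 for P450, -0.08 for GST and -0.13 for UGT genes, beside 0.05 for all tested genes. Differences of at least 1 log2 were found for 4 of 41, or 9.76%, beside 2.06% of all tested genes. All 4 were lower in tumour, beside 1.58% of all tested genes: Cyp6a17, GstE5, Ugt301D1 and Ugt317A1. All 3 same-number differences were negative for 16 of 41 genes, or 39.0% beside 20.6% of all tested genes, and all 3 were positive for 10, or 24.4% beside 36.1%. The 3 tumour values lay wholly below the 3 control values for 7 of 41 genes, beside 7.2% of all tested genes, and wholly above them for 3, beside 8.72%.

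**Figure D3:**
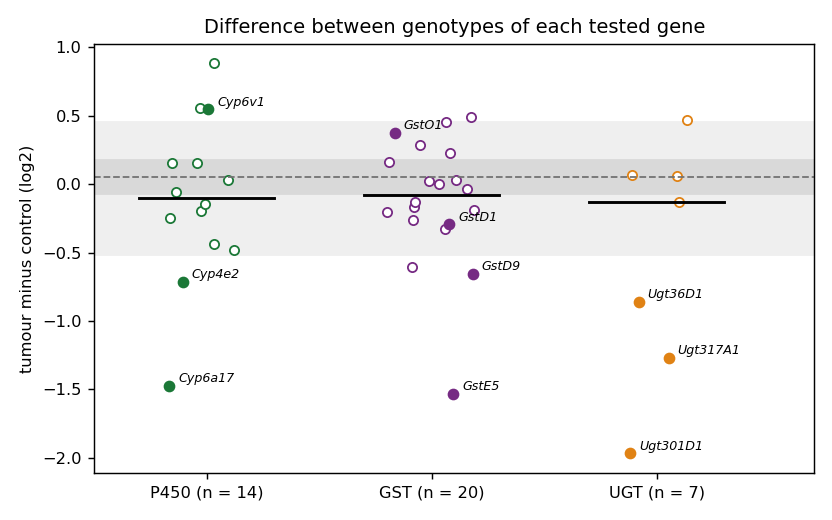
Difference between genotypes (tumour minus control, log2) of each tested gene by family. Filled points were called in the paired fit, black bars are family medians, the dashed line is the median of all 6447 tested genes, and the dark and light bands mark inner and outer percentiles of them, from -0.07 to 0.175 and from -0.52 to 0.45. Ugt301D1, at -1.97, is the lowest point.

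Among P450s, Cyp6a17 had the largest difference. This enzyme of the CYP3 clan is known from its part in adult temperature preference. Its log2 values were 6.26, 5.997 and 6.41 in tumour and 7.50, 7.97 and 7.61 in control. All tumour arrays lay below all control arrays, without regard to replicate number. Tumour arrays averaged 6.22 ± 0.21 and control arrays 7.70 ± 0.25 (SD, n = 3), and the gene was 2.77-fold lower (-1.47 ± 0.18 log2, SE of the paired fit, adjusted p = 0.016). In the unpaired fit its adjusted p was 0.055.

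Cyp4e2, of the CYP4 clan, was at 8.77, 8.98 and 8.82 in tumour and 9.48, 9.57 and 9.66 in control. The replicates of each genotype lay close together, and the genotypes did not overlap. The gene was 1.64-fold lower in the paired fit (-0.71 ± 0.076 log2, adjusted p = 0.012, unpaired adjusted p = 0.084).

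Cyp6v1 was the only P450 gene called as higher in tumour, and by the paired fit alone. Cyp18a1 and Cyp4d2 had larger positive differences that were not called. Its values were 5.73, 7.71 and 7.98 in tumour and 5.26, 7.28 and 7.24 in control. Replicate 1 lay about 2 log2 below replicates 2 and 3 in both genotypes, and the tumour value exceeded the control value within each number. The paired fit gave a rise of 0.55 ± 0.11 log2 (adjusted p = 0.047, unpaired adjusted p = 1), and with 1 array left out the unpaired difference ran from -0.12 without control replicate 1 to 1.25 without tumour replicate 1. A second probe set, annotated to both shn and Cyp6v1, was higher in tumour by 0.39 in the paired fit (adjusted p = 0.047, unpaired 0.26). It was at 10.33, 10.10 and 10.22 in tumour and 9.87, 9.89 and 9.74 in control, without the drop in replicate 1. Its probes do not tell the 2 genes apart.

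Cyp18a1, the ecdysone 26-hydroxylase that inactivates the moulting hormone, did not pass either test. Its values were 5.92, 7.71 and 5.95 in tumour and 5.55, 5.87 and 5.51 in control. All tumour values lay above all control values, and most of the difference of 0.88 came from tumour replicate 2 (adjusted p = 0.15 paired, 0.82 unpaired). Its other probe set had the same high array, at 5.34 in tumour replicate 2 against 2.31 to 2.98 elsewhere.

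The other 10 tested P450 genes were not called in either fit. They were Cyp4d2, Cyp4p1, Cyp4p2, Cyp6d2, Cyp6d4, Cyp6u1, Cyp9c1, Cyp9f2, Cyp12e1 and Cyp310a1, with differences from -0.48 for Cyp6d4 to 0.56 for Cyp4d2. Cyp6d2 stood at -0.44 (adjusted p = 0.25 paired, 0.92 unpaired) and Cyp310a1 at -0.24 (adjusted p = 0.29 paired, 0.96 unpaired). The 2 probe sets of Cyp12e1 disagreed. The brighter differed by -0.05 (adjusted p = 0.85 paired), and the dimmer, with values from 3.13 to 5.43, by -0.92 (adjusted p = 0.029 paired, 0.82 unpaired).

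Of 11 delta GST genes 3 were tested, GstD1, GstD3 and GstD9. The paired fit called GstD1 and GstD9 as lower in tumour, beside 5.38% of all tested genes, and the unpaired fit called none of the 3. All 3 had lower tumour values in each same-number comparison, beside 20.6% of all tested genes. GstD9 was at 8.45, 8.02 and 8.19 in tumour and 8.85, 8.84 and 8.93 in control. Control values were tight and all above the tumour values. The gene was 1.57-fold lower (-0.65 ± 0.11 log2, SE of the paired fit, adjusted p = 0.031, unpaired 0.20).

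GstD1 is a widely used reporter gene for the oxidative stress factor CncC and can break down DDT. Its values were 13.53, 14.13 and 14.17 in tumour and 13.96, 14.39 and 14.35 in control. The genotypes overlapped, and the difference of -0.29 ± 0.058 log2, 1.23-fold, passed the paired fit (adjusted p = 0.047, unpaired 0.92). Without tumour replicate 1 the unpaired difference was -0.09. GstD3 had values of 8.13, 9.23 and 9.38 in tumour and 9.18, 9.73 and 9.64 in control. Its difference of -0.60 passed neither fit (adjusted p = 0.0865 paired, 0.84 unpaired).

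Of the epsilon GSTs, only GstE5 was called among the 7 tested genes, by the paired fit. Its values were 4.15, 5.11 and 4.96 in tumour and 6.08, 6.38 and 6.37 in control. All tumour arrays were lower than all control arrays, and the lowest, tumour replicate 1, was near the floor. The gene was 2.90-fold lower (-1.53 ± 0.16 log2, SE of the paired fit, adjusted p = 0.012, unpaired 0.12). Its neighbours on the chromosome that were tested did not pass either fit: GstE6 differed by -0.26 (adjusted p = 0.36 paired), GstE3 by -0.33 (adjusted p = 0.12 paired) and GstE1 by -0.17 (adjusted p = 0.27 paired). GstE3 lay at 3.69 to 4.37 and so at the border of the floor on all arrays. GstE11, GstE12 and GstE13 differed by 0.02, -0.13 and 0.16.

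GstO1, of the omega class, went the other way. It was at 8.84, 8.998 and 9.09 in tumour and 8.39, 8.69 and 8.72 in control. Every tumour value was above every control value, by a small margin. The rise was 1.30-fold (0.38 ± 0.071 log2, SE of the paired fit, adjusted p = 0.042, unpaired 0.54). The other omega genes were not called, with GstO2 at 0.03 and GstO3 at -0.19 (adjusted p = 0.75 and 0.11 paired).

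The remaining GST classes held no called gene in either fit. Both zeta genes, which serve tyrosine breakdown, had positive differences in all 3 same-number comparisons, GstZ1 of 0.28 and GstZ2 of 0.49 (adjusted p = 0.12 and 0.14 paired, 0.74 and 0.95 unpaired). The 4 theta genes ran from -0.20 for GstT1 to 0.45 for GstT3. GstS1, a sigma GST known from flight muscle, had values of 12.57 to 12.90 and a difference of -0.04 (adjusted p = 0.76 paired).

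UGT genes had the largest difference of the 3 families. Ugt301D1 was at 5.79, 7.40 and 7.40 in tumour and 8.50, 8.74 and 9.27 in control. The genotypes did not overlap, and tumour replicate 1 was the lowest array. Tumour arrays averaged 6.87 ± 0.93 and control arrays 8.84 ± 0.39 (SD, n = 3), which is 3.91-fold lower (-1.97 ± 0.26 log2, SE of the paired fit, adjusted p = 0.020). The unpaired adjusted p was 0.23.

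Ugt317A1 had values of 3.01, 5.40 and 5.70 in tumour and 4.44, 6.65 and 6.83 in control. Replicate 1 was far below replicates 2 and 3 in both genotypes, so the genotypes overlapped, while the same-number differences were -1.43, -1.25 and -1.12. The paired fit gave -1.27 ± 0.11 log2, the lowest adjusted p among the members at 0.0084, and the unpaired fit did not call it (adjusted p = 0.92). Tumour replicate 1 was under the floor of 4, so its value is only a bound. With 1 array left out the unpaired difference ran from -0.42 without tumour replicate 1 to -2.03 without control replicate 1, and it was -0.84 without control replicate 3.

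Ugt36D1 was at 7.06, 8.01 and 7.93 in tumour and 7.94, 8.70 and 8.94 in control. The genotypes overlapped through replicate 1 of the control, and each tumour array was below its same-number control. The gene was 1.82-fold lower in the paired fit (-0.86 ± 0.096 log2, adjusted p = 0.013, unpaired 0.62). Without tumour replicate 1 its unpaired difference was -0.56. Its neighbours Ugt36E1 and Ugt36F1 were at floor.

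The other 4 tested UGT genes passed neither fit. Ugt302C1 differed by -0.13, Ugt302K1 by 0.07, Ugt316A1 by 0.06 and Ugt36A1 by 0.47 (adjusted p = 0.22, 0.64, 0.49 and 0.11 paired). Ugt36A1 was at 4.61 on control replicate 1 against 6.60 and 6.70 on the other control arrays, and without that array its unpaired difference was -0.21.

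Gene order in the RefSeq gene table (assembly Release 6, used for names and neighbours alone) placed many members in chromosomal arrays. In 14 runs of at least 3 adjacent genes of a family, 64 member genes had a probe set, and 15 of them were tested, or 23.4%. Outside such runs 26 of 86 were tested, or 30.2%, and over all members of the families 27.3% were. The difference was not tested. The run from Cyp6a22 to Cyp317a1 held 9 P450 genes, of which Cyp6a17 alone was above the floor. Its neighbour Cyp6a23, a close relative, had values of 2.54 to 2.57. In the run from GstD10 to GstD8, GstD9, GstD1 and GstD3 were tested and 6 of 10 genes were at floor. In the run from GstE10 to GstE9, 4 of 9 genes with a probe set were tested, GstE1, GstE3, GstE5 and GstE6. The runs Ugt35E1 to Ugt303A1, with 6 genes, and Cyp6g1 to Cyp6t3, with 3, were wholly at floor. So were Cyp4ac1 to Cyp4ac3, Cyp313a5 to Cyp313a3, Ugt37C2 to Ugt37D1 and Ugt303B3 to Ugt303B2, with 3 genes each.

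**Figure D4:**
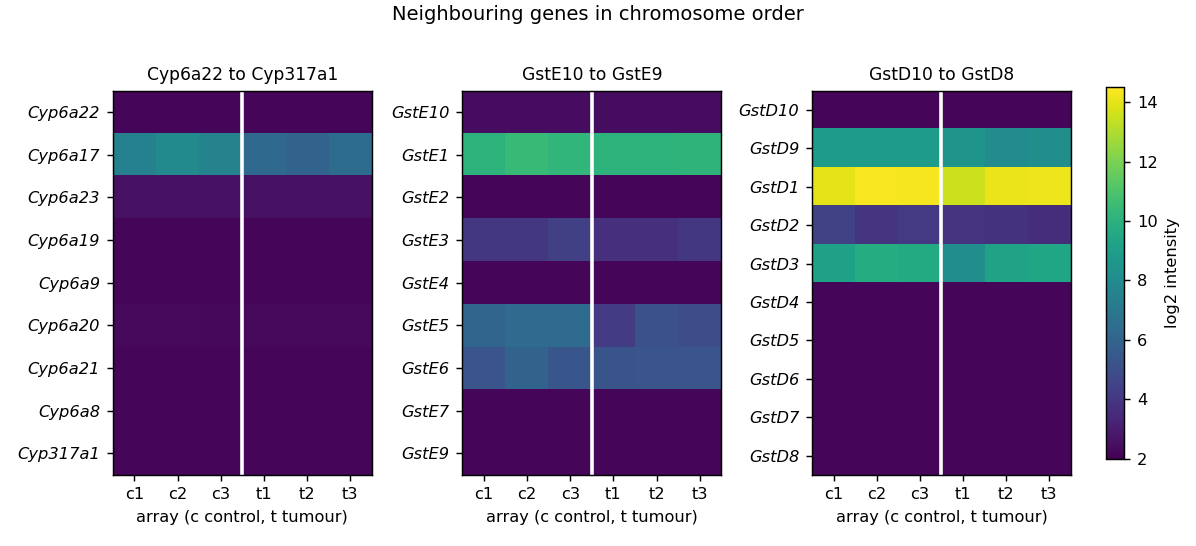
Log2 intensity (colour) on each array for the member genes of 3 chromosomal runs in chromosome order, with control arrays c1 to c3 left and tumour arrays t1 to t3 right of the white line. Cyp6a17 is the single gene above the floor in its run, and GstD9, GstE5 and Cyp6a17 are darker in tumour.

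The replicate 1 arrays were lower in general, and by more for a subset of members. The median shift of replicates 2 and 3 over replicate 1 was 0.33 in tumour and 0.31 in control for the 41 genes. For all tested genes it was 0.31 and 0.36. The mean of replicates 2 and 3 exceeded replicate 1 by at least 1 log2 in both genotypes for 4 of 41 genes, or 9.76% beside 5.06% of all tested genes. They were Ugt317A1 (2.54 in tumour, 2.29 in control), Cyp6v1 (2.11 and 2.01), Ugt36A1 (1.62 and 2.04) and Cyp4d2 (1.28 and 1.73). Cyp6d4 had a shift of 2.21 in tumour and 0.92 in control, and Ugt301D1 of 1.61 and 0.51. The same shift was -0.06 and 0.29 for Cyp6a17 and 0.13 and 0.14 for Cyp4e2. No GST gene was among the 4.

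**Figure D5:**
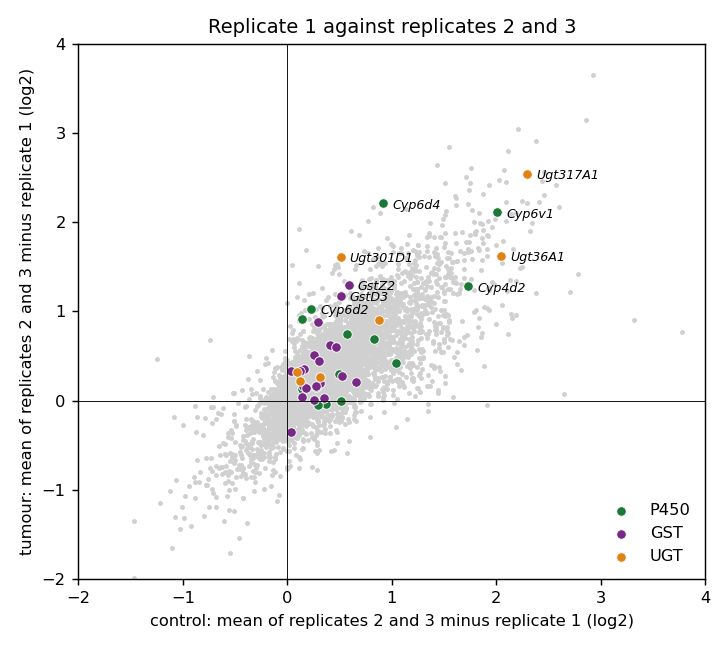
Mean of replicates 2 and 3 minus replicate 1 (log2) in control, horizontal, and tumour, vertical, for the tested members by family and for all tested genes in grey, of which 5 lie outside the axes. Ugt317A1, Cyp6v1, Ugt36A1 and Cyp4d2 lie beyond 1 in both genotypes.

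Beside the falls of members, some genes of other cell types were lower in tumour and others were not. The ring gland genes sad and dib are given below with the Halloween genes. Of 3 muscle and myoblast genes measured, the paired fit called 2 as lower, beside 5.38% of all tested genes. They were TpnC73F (-0.84, adjusted p = 0.0103) and up (-0.52, adjusted p = 0.034), while twi was not called (-0.70, adjusted p = 0.060). TpnC73F was also lower in the unpaired fit (adjusted p = 0.0451), beside 0.372% of all tested genes. The list's mean was 8.58 to 8.72 in tumour and 9.18 to 9.43 in control. None of 6 haemocyte genes was called in either fit, beside 9.45% of all tested genes in the paired one. Their mean was 5.94 to 6.25 in tumour and 6.11 to 6.86 in control. The means of 5 fat body genes were 4.05 to 4.07 in tumour and 3.99 to 6.03 in control. Lsp2, Fbp1 and Fbp2 were raised on control replicate 3 alone, and apolpp was at floor. The means of 5 salivary gland genes were 2.28 to 2.35 in tumour and 2.53 to 4.65 in control, with Sgs4 and Sgs5 at floor. Of 2 glial genes, moody was lower in the paired fit (-0.41, adjusted p = 0.0457) and repo was not called (-0.16, adjusted p = 0.41). Of 2 gut and tubule genes with a probe set, Npc2b was lower in the paired fit (-0.39, adjusted p = 0.0442) and Jon65Aiv was at floor. Of 2 genes listed for oenocytes with a probe set, FarO was at floor on all arrays. The other, svp, was at 8.01 to 8.43 and was not called (0.21, adjusted p = 0.23 paired). Whether the svp signal came from oenocytes was not tested. The tracheal gene btl was at 2.17 to 3.27 in tumour and 2.46 to 4.83 in control. The part of these cells in the falls was not tested. In such bulk samples fewer cells of a type and less RNA per cell cannot be told apart.

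Regulators of these enzymes were not called. Of 10 regulators and redox partners with a probe set, 7 were tested and neither fit called any (6447 genes tested, of which the paired fit called 9.45%). The list included cnc, whose product CncC induces GST genes under oxidative stress, at -0.05 (adjusted p = 0.54 paired). Keap1, its inhibitor, was at 0.17 and maf-S, its partner, at 0.18 (adjusted p = 0.41 and 0.0902 paired). Hr96, a nuclear receptor of the xenobiotic response, was at 0.10, and ss, the dioxin receptor homologue that specifies antennal identity, at -0.51 (adjusted p = 0.63 and 0.063 paired).

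Enzymes that supply or accompany the families gave 1 call in the paired fit, beside 9.45% of all tested genes. Neither fit called any of 6 tested glutathione and redox enzymes. Among them Gclc, which makes the glutathione precursor, was at -0.33 and catalase (Cat) at -0.27 (adjusted p = 0.0829 and 0.0667 paired). The related omega GST gene se, which acts in eye pigment synthesis, was at floor. Neither fit called any of 3 tested transporters or the 1 tested gene of UDP-sugar supply, sgl. Of 2 tested genes among sulfotransferases and epoxide hydrolases, Jheh2, a juvenile hormone epoxide hydrolase, was the called gene, with a rise of 0.28 (paired adjusted p = 0.047, unpaired 0.89).

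The Halloween genes serve the production of the moulting hormone and mostly encode P450s under other symbols. The paired fit called both of the 2 tested genes as lower in tumour, beside 5.38% of all tested genes. Of 6 with a probe set, nvd, spo, dib and shd were at floor, and phm was not analysed here. The P450 gene spok was at 5.92, 3.21 and 5.94 in tumour and 8.29, 6.66 and 6.99 in control. Its values did not overlap, and it was lower by -2.29 ± 0.45 log2 (SE of the paired fit, adjusted p = 0.047, unpaired 0.50). Tumour replicate 2 was under the floor of 4, so its value there is only a bound and the difference is not an exact size. The P450 gene sad was at 4.49, 4.77 and 5.76 in tumour and 6.04, 5.90 and 6.91 in control, without overlap and lower by -1.28 ± 0.13 log2 (SE of the paired fit, adjusted p = 0.012, unpaired 0.42). With replicates 2 and 3 alone neither was called (adjusted p = 0.21 for both).

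The 2 cyclophilin genes that share the Cyp prefix encode protein folding enzymes. Cyp1 was at 14.14 to 14.69 with a difference of -0.05, and Cyp40 at 7.93 to 8.41 with a difference of 0.13 (adjusted p = 0.36 and 0.35 paired). Neither was called in either fit.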

How the data were processed

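The authors deposited log2 intensities made with GCRMA, per the submitters' processing notes. No version is stated there, and the log2 scale was read from the values. Precision is set by the 6 arrays, since arrays have no sequencing depth. GEO's platform annotation named 1 gene for 13647 of 18769 non-control probe sets, and 13544 of these symbols could be looked up by gene identifier in the RefSeq table. Fits used limma 3.58.1 in R 4.3.3 (lmFit, eBayes with trend, Benjamini-Hochberg adjustment) on probe sets at 4 or more on at least 3 arrays. The unpaired fit is the main one. The paired fit adds the replicate number, and all 3 same-number correlations exceeded the bound of 0.1. The p-values reflect variation among disc pools only. Members and gene lists were chosen with earlier results of these data known. Named are members called in either fit, those without overlap and at least 0.5 apart, the 4 with the smallest p per family, and genes of known role. The other tested members are named to complete each class, with their values seen, and were not followed through the alternatives. Fits were also run on simulated data that were built with the replicate block. Such data cannot show whether the block is right for these arrays. No sequence is shown, and genes without a single-gene probe set were not analysed here.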

Additional observations from a re-analysis of the deposited data

How the results depend on the processing

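The unpaired fit called 0 of the 41 tested enzyme genes and 33 of all tested genes. The replicate block called 10 and 609, replicates 2 and 3 alone 8 and 462, arrays centred on the median 3 and 145, and quantile normalization 4 and 179. Without a trend in eBayes 1 enzyme gene was called, Cyp6a17. With no filter on low values 1 gene was called in all and no enzyme gene (6 at an unadjusted limma p under 0.05). Leaving out 1 array gave 0 enzyme genes each time, with 5 to 8 at an unadjusted p under 0.05, and 0 to 13 genes in all. With the block, all of these chosen after seeing the data, no filter called 0 enzyme genes (15 at an unadjusted p under 0.05). Leaving out 1 replicate number of both genotypes gave 0 to 8: 8 without replicate 1, 6 without replicate 2 and 0 without replicate 3. Of the 10 genes, the block without replicate 1 kept 7, quantile normalization 9, centring 10, a filter at 6 on at least 3 arrays 9 and no trend 9. The cause was not tested.

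Family medians moved with the array left out: from -0.37 to 0.15 for P450, -0.1676 to -0.0093 for GST and -0.2103 to -0.0602 for UGT genes, while the median of all tested genes ran from -0.07 to 0.15. With no filter all 3 medians were 0, since most added genes are at floor, and with a filter at 6 they were -0.20 for P450, -0.0187 for GST and -0.0362 for UGT genes. The counts at floor were 65 to 67 for P450, 13 to 15 for GST and 27 to 28 for UGT genes with the floor at 3 or 5, and platform symbols gave the same counts.

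Of 269 alternative values of the 21 tested genes that the naming rule gave, 7 had the other sign, all with 1 array left out. The block, the changed filters and eBayes without a trend leave the difference itself unchanged, so those values could not change sign. Cyp6v1 (-0.12 to 1.2504) and Ugt36A1 (-0.21 to 1.011) were negative without control replicate 1. Cyp1 (-0.1983 to 0.1149) was positive in 3 of these settings and GstS1 (-0.1278 to 0.0363) in 2.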
